A study of Mus musculus with 8 samples.

Results

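The 8 genes Vegfc, Vegfd, Ccbe1, Flt4, Nrp2, Prox1, Lyve1 and Pdpn, which belong to the VEGF-C axis and to lymphatic vessels, were followed in chronic stroke infarcts of aged mice, among 46078 gene identifiers counted. They were chosen by name. Vegfc and Vegfd encode ligands, Ccbe1 a protein needed for ligand processing, Flt4 (VEGFR-3) and Nrp2 a receptor and co-receptor, and Prox1, Lyve1 and Pdpn are widely used labels of lymphatic endothelium. Bulk RNA-Seq gave 8 libraries from wild-type C57BL/6J males that were 18 months old, and each library was taken as 1 animal. Every animal, controls included, had DH stroke, a permanent occlusion of the distal middle cerebral artery combined with hypoxia. From 1 week after surgery the mice were injected under the skin 3 times per week over 6 weeks, with sterile PBS in the vehicle group (n = 4) or with 4 g/kg HPβCD in the treated group (n = 4). HPβCD, 2-hydroxypropyl-β-cyclodextrin, is a ring of sugar units that can hold cholesterol and other lipids. Infarcts were collected 7 weeks after stroke by visual dissection, so the amount of bordering brain in a piece was not fixed. The labels number the libraries within each group but do not say in so many words that each came from a different mouse, and p-values measure the spread between these libraries.

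Lymphatic vessels carry fluid and immune cells away from tissue. In the head they run in the meninges and are not known as a normal component of brain parenchyma. VEGF-C and VEGF-D are secreted as precursors, and CCBE1 together with the protease ADAMTS3 promotes the cleavage that turns VEGF-C into a strong ligand of VEGFR-3. VEGFR-3 signals in lymphatic endothelium, where neuropilin-2 assists it, and the transcription factor PROX1 sets and holds lymphatic identity. None of these genes is restricted to lymphatic cells. Prox1 is also found in some neurons and in cells of the oligodendrocyte lineage, Lyve1 in macrophages of brain borders and vessel walls, Pdpn in fibroblasts and reactive astrocytes, and Vegfc in fibroblasts and macrophages.

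The libraries held between 16.6 M and 32.9 M gene counts, vehicle 2 being the deepest. Vehicle 1 and vehicle 3 stood apart from the other 6 libraries. The summed level (CPM, gene counts relative to the TMM-scaled library total) of 6 neuron markers was 898 in vehicle 1 and 5670 in vehicle 3, against 9.28 to 32.0 in the other vehicle libraries and 2.57 to 71.6 in the HPβCD libraries. Of these markers 5 were tested and 0 were called by edgeR, although 5 had an unadjusted p under 0.05 and DESeq2 called 4 lower, and none was at 0 in any library. Values without vehicle 1 and vehicle 3 are given beside the members whose groups did not overlap. In bulk tissue, fewer cells of a type and less RNA per cell cannot be told apart.

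To ask whether the axis differed between treatments, the 8 members were read from a single edgeR quasi-likelihood fit of all 14736 genes that passed the count filter, with p-values adjusted by the Benjamini-Hochberg method over all of them. All 8 members passed the filter. Of these, 2 rose in HPβCD-treated infarcts, the ligand gene Vegfc and the receptor gene Flt4, and 0 fell (edgeR, and 0 lower by DESeq2, limma-voom or an unadjusted p under 0.05). Over all tested genes 1.95% were called in either direction and 1.17% were called higher. In 5 members (Vegfc, Vegfd, Ccbe1, Flt4 and Nrp2) every HPβCD library lay above every vehicle library, where 16.8% of all tested genes had groups that did not overlap and 8.77% had them with HPβCD higher. The same 5 members had an unadjusted p under 0.05, against 27.8% of all tested genes. The median log2 fold change was 0.93 over the members and -0.05 over all tested genes. The members were picked with results of these data known, and the study had singled out Vegfc and Vegfd from the same libraries, so these counts describe the members and are not independent evidence of a direction.

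**Figure D1:**
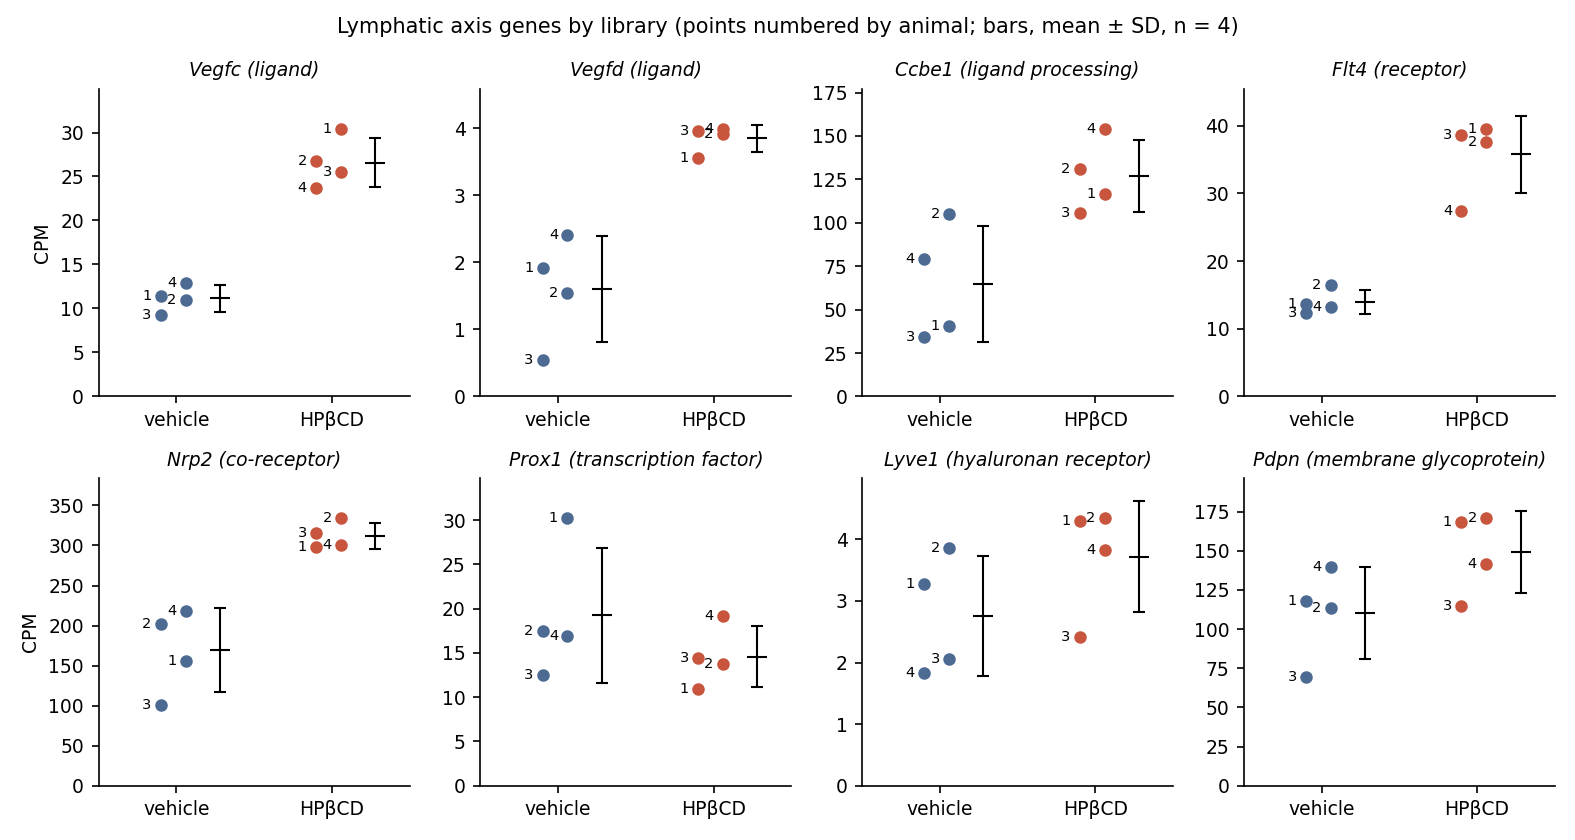
Each panel plots the CPM of one gene (y axis, starting at 0) in 4 vehicle and 4 HPβCD libraries, numbered as in the labels, with the group mean ± SD beside the points. Vegfc, Vegfd, Ccbe1, Flt4 and Nrp2 have groups that do not overlap, and Prox1, Lyve1 and Pdpn have groups that overlap.

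Vegfc, the main growth factor for lymphatic endothelium, lies on chromosome 8 at 54077606 to 54187096 on the plus strand (GRCm38, GENCODE M21). It measured 11.5, 11.0, 9.24 and 12.9 CPM in vehicle 1 to 4 and 30.4, 26.8, 25.5 and 23.7 CPM in HPβCD 1 to 4. The lowest HPβCD library was well above the highest vehicle library, and neither group held a library apart from its others. The log2 fold change was 1.25 with an SE of 0.15 (edgeR, adjusted p = 0.0339), a 2.4-fold higher level. Without vehicle 1 and vehicle 3 it was 1.17 (edgeR, adjusted p = 0.0314). Its adjusted p exceeded the threshold when any of 5 single libraries was left out, at 0.121 without vehicle 1, 0.0635 without vehicle 4, 0.104 without HPβCD 1, 0.139 without HPβCD 2 and 0.0899 without HPβCD 3 (edgeR). In these 5 fits its unadjusted p was 5.2e-05 to 1.4e-04, and edgeR called 0 to 4 genes over the whole table. The log2 fold change of Vegfc stayed between 1.17 and 1.34 under all 15 alternatives.

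Vegfd, the second ligand of VEGFR-3, lies on chromosome X at 164373378 to 164402650 on the plus strand. Its levels were 1.92, 1.55, 0.544 and 2.41 CPM in vehicle 1 to 4 and 3.55, 3.91, 3.96 and 3.99 CPM in HPβCD 1 to 4. These rest on 9 to 74 reads per library. Every HPβCD library was above every vehicle library and the HPβCD libraries were close together, with a mean of 3.85 ± 0.202 CPM (SD, n = 4), whereas vehicle 3 was far below the other vehicle libraries. Its log2 fold change of 1.26 with an SE of 0.38 was not called (edgeR, adjusted p = 0.0883). Without vehicle 1 and vehicle 3 it was 0.99. The study, which used DESeq2, listed Vegfd among upregulated genes of angiogenesis, and DESeq2 called it here too (adjusted p = 0.0142).

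The sequence upstream of both ligand genes is shown because their fitted log2 fold changes were alike while their starts differ in base composition. The letters are those of RefSeq on GRCm38.p6, 5′ to 3′ on the plus strand, ending at the base before the first annotated start, and capitals mark GC boxes (GGGCGG, or CCGCCC when the match is on the other strand). Vegfc is given over chr8:54077282-54077531 and Vegfd over chrX:164373272-164373377.
Vegfc: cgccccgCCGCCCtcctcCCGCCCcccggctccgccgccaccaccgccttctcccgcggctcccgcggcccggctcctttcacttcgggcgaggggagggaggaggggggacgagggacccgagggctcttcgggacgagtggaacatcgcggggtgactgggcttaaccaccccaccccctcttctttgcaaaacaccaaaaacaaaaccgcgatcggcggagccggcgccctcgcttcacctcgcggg
Vegfd: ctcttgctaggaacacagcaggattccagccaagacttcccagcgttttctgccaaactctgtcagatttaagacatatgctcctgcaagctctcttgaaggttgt

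The Vegfc stretch is 71.6% GC, and 92.7% of all 32851 RefSeq windows of 250 bases had a lower GC content. It holds 2 GC boxes, a motif found in 32.7% of the windows. The Vegfd stretch of 106 bases is 47.2% GC and holds 0 GC boxes. Of the 8 members 6 had a RefSeq window of 250 bases, set by the RefSeq start, which can lie past the GENCODE start. The Flt4 window lies wholly, and the Vegfd and Nrp2 windows and a second Prox1 window in whole or in part, inside the gene coordinates given here. The windows of both called members held GC boxes, 3 of them in that of Flt4, but so did Nrp2 with 5 and Prox1 with 2 and 1 in its 2 windows. The Pdpn window was 43.2% GC and held 0 GC boxes and 1 CACGTG E-box, a motif found in 6.02% of windows. On either strand no member window held CCAAT or the AP-1 motif TGANTCA, which were present in 33.9% and 6.75% of all windows, and TATAAA occurred once in the Vegfd window, past the GENCODE start and outside the stretch shown, and once in a Prox1 window, against 12.4% of all windows. Such matches are letters in a window and say nothing of binding.

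Ccbe1, which encodes the secreted cofactor of VEGF-C processing, lies on chromosome 18 at 66045302 to 66302741 on the minus strand. Its levels were 40.5, 105, 34.1 and 79.3 CPM in vehicle 1 to 4 and 116, 131, 106 and 154 CPM in HPβCD 1 to 4. The groups were separated only by the narrow gap between vehicle 2 and HPβCD 3, and the 2 neuron-rich libraries were the lowest. Its log2 fold change of 0.97 with an SE of 0.35 was not called (edgeR, adjusted p = 0.119). Without vehicle 1 and vehicle 3 it was 0.47 (edgeR, adjusted p = 0.194). Of its exon bases 2.95% overlap a gene on the other strand, and whether counting used strand is not given in the sources used here.

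Flt4, the receptor tyrosine kinase that binds both ligands, lies on chromosome 11 at 49609263 to 49652739 on the plus strand. It measured 13.7, 16.4, 12.4 and 13.2 CPM in vehicle 1 to 4 and 39.5, 37.7, 38.6 and 27.4 CPM in HPβCD 1 to 4. The vehicle libraries were close together, and HPβCD 4 was below the other treated libraries yet above every vehicle library. Flt4 had a log2 fold change of 1.36 with an SE of 0.17 (edgeR, adjusted p = 0.0339), a 2.6-fold higher level. Without vehicle 1 and vehicle 3 it was 1.28 (edgeR, adjusted p = 0.0340). As for Vegfc, the call was lost without vehicle 1 (adjusted p = 0.121), vehicle 4 (0.0635), HPβCD 1 (0.104), HPβCD 2 (0.139) or HPβCD 3 (0.0899), with the log2 fold change between 1.27 and 1.47 under all 15 alternatives. The unadjusted p of Flt4 in these fits with a library left out was 1.2e-04 to 1.5e-04 (edgeR).

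Nrp2, a co-receptor for VEGF-C and for class 3 semaphorins, lies on chromosome 1 at 62703285 to 62818695 on the plus strand. Its levels were 156, 202, 101 and 218 CPM in vehicle 1 to 4 and 298, 334, 315 and 301 CPM in HPβCD 1 to 4. The HPβCD libraries formed a narrow group above all vehicle libraries, and vehicle 3 was the lowest. Its log2 fold change of 0.88 with an SE of 0.23 was not called (edgeR, adjusted p = 0.0694). Without vehicle 3 alone it was 0.70 and passed the threshold (edgeR, adjusted p = 0.0380). Without vehicle 1 and vehicle 3 it was 0.59 (edgeR, adjusted p = 0.0774), 1.5 times smaller than with all libraries. DESeq2, run on the same genes, called 4 members, Vegfc, Flt4, Nrp2 (adjusted p = 0.00749) and Vegfd (adjusted p = 0.0142), where it called 17.8% of all tested genes. On simulated counts with known changes, a larger share of the calls made by DESeq2 than of those made by edgeR was false. That simulation used dispersions estimated by edgeR and did not copy the neuron-rich libraries. It therefore cannot settle which DESeq2 calls are false here, and calls by DESeq2 alone are taken with caution.

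The 3 members used as labels of lymphatic endothelial cells gave no call. Prox1, on chromosome 1 at 190118035 to 190170714 on the minus strand, measured 30.2, 17.4, 12.5 and 16.9 CPM in vehicle 1 to 4 and 10.9, 13.8, 14.4 and 19.2 CPM in HPβCD 1 to 4. The groups overlapped, vehicle 1 was the highest library of all, and the log2 fold change was -0.40 with an SE of 0.29 (edgeR, adjusted p = 0.400). It was the only member with a fitted value below 0, and without vehicle 1 that value was -0.094 (edgeR, adjusted p = 0.862). Of its exon bases 1.59% overlap Prox1os on the other strand.

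Lyve1, which encodes a hyaluronan receptor, lies on chromosome 7 at 110850607 to 110863239 on the minus strand. Its levels were 3.27, 3.87, 2.05 and 1.82 CPM in vehicle 1 to 4 and 4.30, 4.34, 2.41 and 3.82 CPM in HPβCD 1 to 4, from 34 to 135 reads per library. The groups overlapped, since HPβCD 3 was below vehicle 1 and vehicle 2. The log2 fold change was 0.42 with an SE of 0.32 (edgeR, adjusted p = 0.421).

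Pdpn, which encodes the membrane glycoprotein podoplanin, lies on chromosome 4 at 143267431 to 143299564 on the minus strand. Its levels were 118, 113, 69.3 and 140 CPM in vehicle 1 to 4 and 168, 171, 115 and 142 CPM in HPβCD 1 to 4. HPβCD 3 was within the vehicle range, so the groups overlapped. The log2 fold change was 0.44 with an SE of 0.23 (edgeR, adjusted p = 0.247), and 0.25 without vehicle 1 and vehicle 3.

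**Figure D2:**
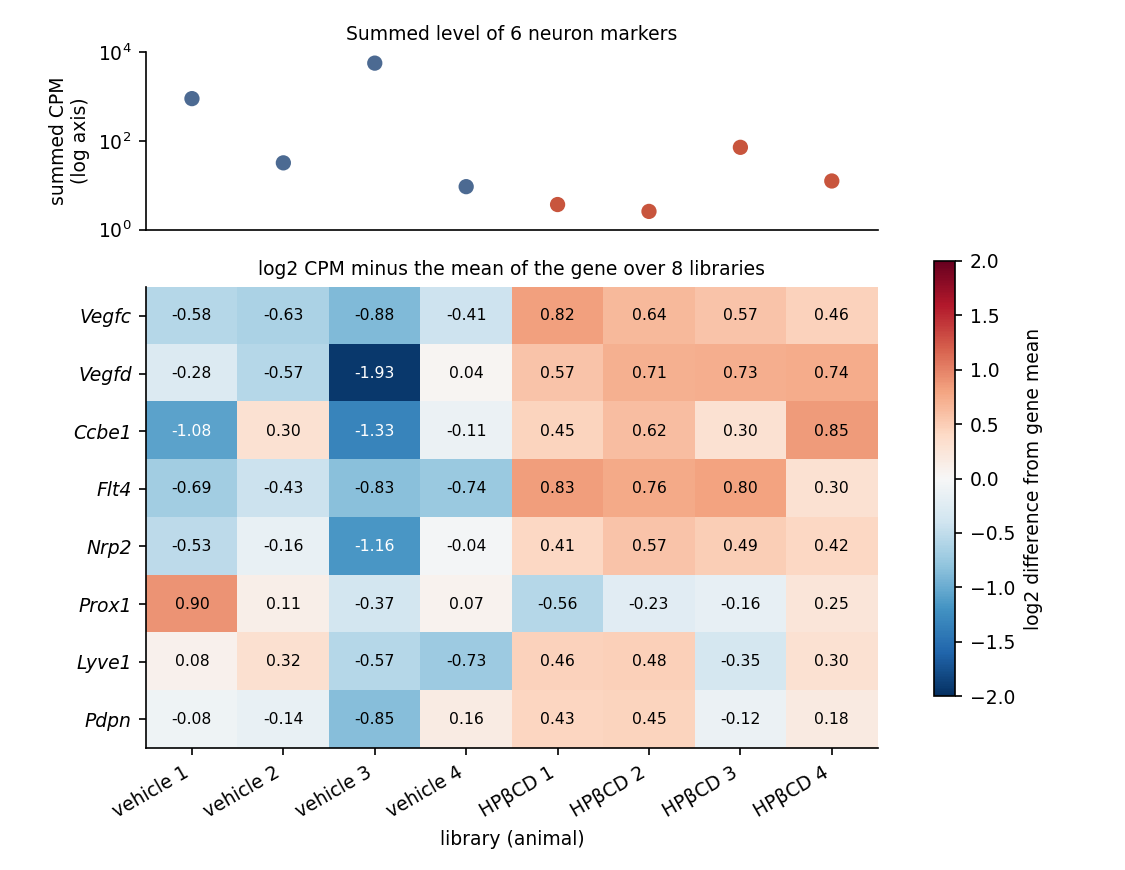
The upper panel plots the summed CPM of 6 neuron markers (log axis) in each library, and the lower panel gives the log2 CPM of each member minus its mean over 8 libraries. Vegfc and Flt4 were below their mean in all 4 vehicle libraries and above it in all 4 HPβCD libraries, and in vehicle 3 all 8 members were below their mean.

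Vehicle 3, the library with the highest neuron marker sum, was the lowest vehicle library for 7 of the 8 members and the lowest of all 8 libraries for 6. Lyve1 was the exception within the vehicle group, with its lowest level in vehicle 4. Vehicle 1, the other neuron-rich library, was the lowest vehicle library for 0 members, a count to which vehicle 3 left little room. With vehicle 3 set aside, vehicle 1 was the lowest vehicle library for Ccbe1 and Nrp2 and not for the other members. The part of tissue composition in the members' differences was not tested beyond these values and the fits without both libraries, in which Vegfc and Flt4 were again the 2 members called.

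Levels were compared between genes per length of exon, as mean CPM per kb. In vehicle infarcts the order was Pdpn at 60.6 CPM per kb, Nrp2 at 14.3, Ccbe1 at 5.98, Vegfc at 4.55, Prox1 at 2.30, Flt4 at 1.69, Lyve1 at 0.944 and Vegfd at 0.667. Among neighbours in that order, the libraries of Pdpn and Nrp2, of Vegfc and Prox1, and of Flt4 and Lyve1 did not overlap, and the other neighbours did. In HPβCD-treated infarcts Pdpn stood at 82.0 CPM per kb, Nrp2 at 26.4, Ccbe1 at 11.7, Vegfc at 10.9, Flt4 at 4.35, Prox1 at 1.73, Vegfd at 1.60 and Lyve1 at 1.27. Here Ccbe1 and Vegfc, Prox1 and Vegfd, and Vegfd and Lyve1 overlapped. Flt4 stood below Prox1 in the vehicle order, with overlapping libraries, and above it in the HPβCD order, with no overlap.

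The rest of the VEGF-C pathway was described from 30 further genes, comprising proteases, receptors, co-receptors, integrins, signalling proteins and VEGF relatives. This list and the lymphatic list below were drawn up with earlier results of these data known, so their counts are not independent evidence. All 30 were tested, 2 were called higher and 0 lower, against 1.17% called higher among all tested genes. At an unadjusted p under 0.05 there were 15 higher and 3 lower (27.8% of all tested genes in either direction), DESeq2 called 10 higher and 2 lower (17.8% in either direction), and limma-voom called 1 higher and 0 lower. The fitted log2 fold change was above 0 for 23 and below 0 for 7, with a median of 0.51 against -0.05 over all tested genes. In 10 of them all HPβCD libraries were above all vehicle libraries, against 8.77% of all tested genes. The called genes were Plxna1, a plexin that transmits semaphorin signals with neuropilins, and Pgf, placental growth factor, a ligand of VEGFR-1. Plxna1 measured 81.8 to 120 CPM in the vehicle group and 201 to 253 CPM in the HPβCD group, with a log2 fold change of 1.13 (± 0.15 SE, adjusted p = 0.0389 by edgeR). Pgf measured 9.30 to 14.1 CPM and 17.6 to 27.3 CPM, with a log2 fold change of 1.03 (± 0.20 SE, adjusted p = 0.0483 by edgeR). Leaving out vehicle 1, vehicle 4 or HPβCD 1, 2 or 3 ended both calls, with adjusted p up to 0.146 for Plxna1 and up to 0.175 for Pgf. With vehicle 1 and vehicle 3 both left out, Plxna1 was called (adjusted p = 0.0328) and Pgf was not (adjusted p = 0.0836 by edgeR).

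Among the other receptors, Kdr (VEGFR-2) measured 43.3 to 71.9 CPM in the vehicle group and 63.5 to 113 CPM in the HPβCD group, with overlap and a log2 fold change of 0.72 (± 0.23 SE, adjusted p = 0.0974 by edgeR). Nrp1, the co-receptor related to Nrp2, had a log2 fold change of 0.81 (± 0.22 SE, adjusted p = 0.0785 by edgeR) with HPβCD libraries all above vehicle libraries. The study had listed Nrp1 as upregulated on these libraries with DESeq2, which also called it here (adjusted p = 0.00922). Flt1 (VEGFR-1) had 0.17 (± 0.24 SE, adjusted p = 0.703 by edgeR). The protease gene Adamts3, whose product acts with CCBE1, ran from 1.56 to 5.64 CPM in the vehicle group and from 1.18 to 2.57 CPM in the HPβCD group, with a log2 fold change of -0.99 (± 0.41 SE, adjusted p = 0.162 by edgeR). Its 2 highest libraries were the neuron-rich vehicle 1 and vehicle 3, and without both the log2 fold change was -0.34 (adjusted p = 0.639 by edgeR). The related protease gene Adamts2 had 1.02 (± 0.22 SE, adjusted p = 0.0555 by edgeR). The integrin genes Itga9, whose product is needed for lymphatic valves, and Itgb1, its partner, had log2 fold changes of 0.05 and 0.55 and neither was called (edgeR, adjusted p = 0.911 and 0.213), and that of Itga9 fell below 0, to -0.05, when scaled by library totals only.

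The 2 ligands of VEGFR-3 were also set against the remaining VEGF genes. Vegfa, the main growth factor of blood vessels, had a log2 fold change of -0.06 (± 0.16 SE, adjusted p = 0.833 by edgeR) and Vegfb of 0.45 (± 0.31 SE, adjusted p = 0.382 by edgeR), both with overlapping groups. Ratios within a library do not depend on library scaling. The log2 ratio of Vegfc to Vegfa was -1.44 to -0.70 in the vehicle group and 0.11 to 0.55 in the HPβCD group, a difference of 1.33 (two-sided exact permutation test, p = 0.0286, the smallest that 4 against 4 allows). For Flt4 to Kdr the log2 ratio differed by 0.65 and for Flt4 to Flt1 by 1.20, each with groups that did not overlap (exact permutation test, p = 0.0286 for each). For Nrp2 to Nrp1 it differed by 0.11 with overlap (exact permutation test, p = 0.457). These 4 ratios were chosen after the values were seen, so their p-values describe the ratios and are not independent evidence. The first 3 had an adjusted p of 0.0381 over the 4 (exact permutation test), which does not allow for that choice. Leaving out each library in turn gave differences of 1.16 to 1.42 for Vegfc to Vegfa and of 0.53 to 0.74 for Flt4 to Kdr.

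**Figure D3:**
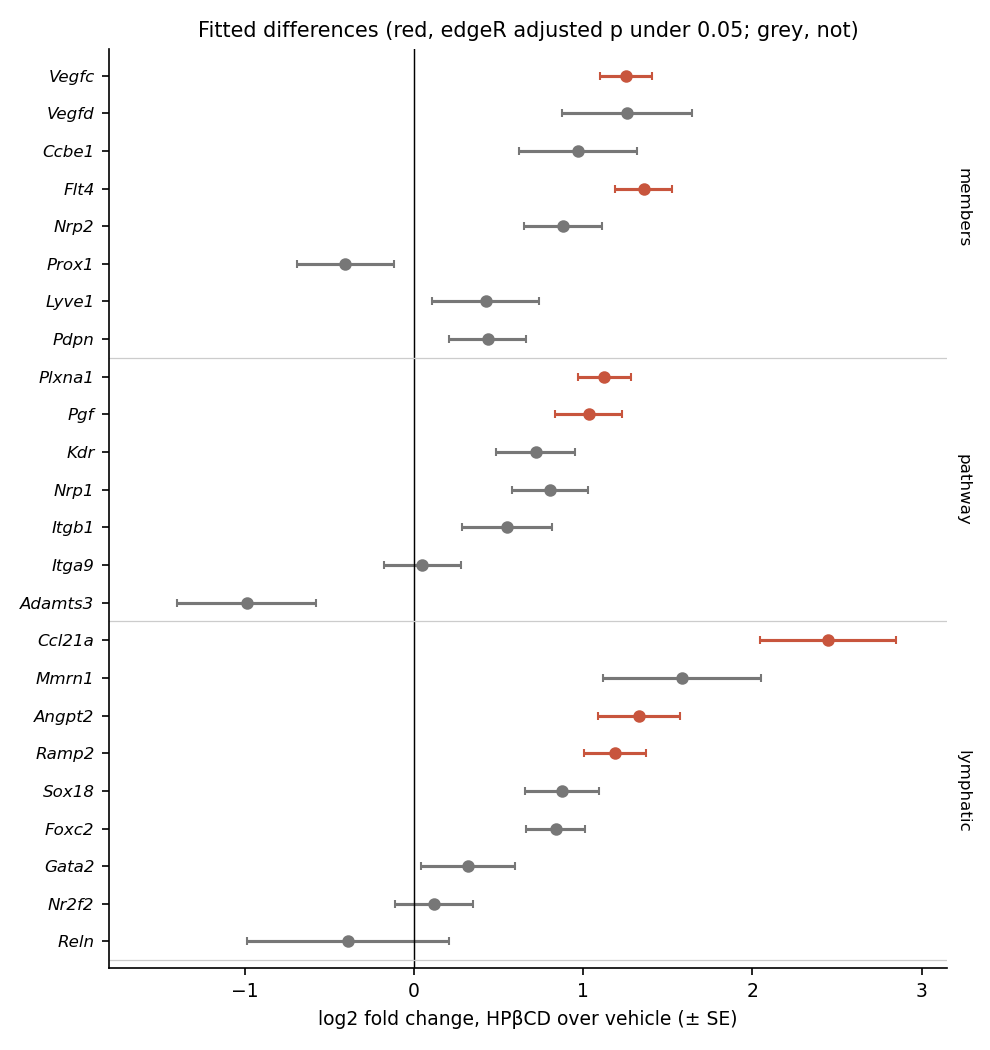
Points show the fitted log2 fold change of HPβCD over vehicle ± SE for the 8 members, 7 genes of the VEGF-C pathway and 9 lymphatic genes, in red where edgeR's adjusted p was under 0.05. Vegfc, Flt4, Plxna1, Pgf, Ccl21a, Angpt2 and Ramp2 are red, and Prox1, Adamts3 and Reln are the genes below 0.

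A second list, which shares Ptpn14 with the pathway list, held 46 genes of lymphatic development and identity besides the members. Of these 44 were tested, 3 were called higher (against 1.17% of all tested genes) and 0 lower, and the log2 fold change was above 0 for 33 and below 0 for 11, with a median of 0.41. An unadjusted p under 0.05 was reached by 20 higher and 0 lower (27.8% of all tested genes in either direction), DESeq2 called 15 higher and 0 lower (17.8% in either direction), and limma-voom called 1 higher and 0 lower. The HPβCD libraries were all above the vehicle libraries for 17, against 8.77% of all tested genes, and all below for 0. Tbx1 and Gdf2 did not pass the filter, and Gdf2 had no read in any library. The called genes were Ccl21a, a chemokine made by lymphatic endothelium, Angpt2, a ligand of the receptor TIE2 that both blood and lymphatic vessels use, and Ramp2, part of the adrenomedullin receptor.

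Ccl21a measured 3.10, 3.78, 1.75 and 2.20 CPM in vehicle 1 to 4 and 23.5, 12.0, 16.8 and 7.09 CPM in HPβCD 1 to 4, with a log2 fold change of 2.45 (± 0.40 SE, adjusted p = 0.0444 by edgeR). The treated libraries differed among themselves more than the vehicle libraries did, but all lay above them. The gene has near-identical copies in the mouse genome, and reads that align to several places were not assigned, so its level is uncertain. Angpt2 measured 11.7 to 27.2 CPM and 43.0 to 53.4 CPM, with a log2 fold change of 1.33 (± 0.24 SE, adjusted p = 0.0483 by edgeR). Ramp2 measured 52.2 to 71.0 CPM and 99.8 to 172 CPM, with a log2 fold change of 1.19 (± 0.18 SE, adjusted p = 0.0427 by edgeR). Without vehicle 1, vehicle 4, HPβCD 1, HPβCD 2 or HPβCD 3 none of the 3 was called, with adjusted p up to 0.172 for Ccl21a, 0.175 for Angpt2 and 0.172 for Ramp2, and Angpt2 was also lost without HPβCD 4 (edgeR, adjusted p = 0.0514). Without vehicle 1 and vehicle 3 together Angpt2 was called (adjusted p = 0.0395), and Ccl21a (0.0717) and Ramp2 (0.0504) were not (edgeR).

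Mmrn1, which encodes a matrix protein of lymphatic endothelium and platelets, measured 7.17, 10.3, 1.57 and 4.56 CPM in vehicle 1 to 4 and 14.8, 18.4, 17.9 and 19.9 CPM in HPβCD 1 to 4. The groups did not overlap and the log2 fold change was 1.59 (± 0.47 SE, adjusted p = 0.0853 by edgeR). It passed the threshold without vehicle 3, at 1.27 (edgeR, adjusted p = 0.0380). The summed CPM of 4 platelet genes was 3.70 to 13.4 in the vehicle group and 1.78 to 6.54 in the HPβCD group, with 0 of 2 tested called (edgeR, 0 with unadjusted p under 0.05, 0 by DESeq2), and Gp9 was at 0 in at least 1 library. The transcription factor genes Foxc2 and Sox18, active in lymphatic valves and in endothelial precursors of lymphatic cells, had log2 fold changes of 0.84 and 0.87 with groups that did not overlap (edgeR, adjusted p = 0.0502 and 0.0657). Leaving out vehicle 3 or HPβCD 4 brought Foxc2 past the threshold (edgeR, adjusted p = 0.0343 and 0.0432).

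Nr2f2, Gata2 and Reln had overlapping groups. Nr2f2, a partner of PROX1, had a log2 fold change of 0.12 and Gata2, a regulator of lymphatic valves, of 0.32 (edgeR, adjusted p = 0.777 and 0.494). Reln, which lymphatic endothelium and cortical neurons both make, measured 34.7, 10.1, 43.2 and 5.96 CPM in vehicle 1 to 4 and 12.0 to 21.8 CPM in the HPβCD group. Its 2 highest libraries were the neuron-rich ones. The log2 fold change was -0.39 (± 0.60 SE, adjusted p = 0.721 by edgeR) with all libraries, 0.09 without vehicle 3 and 1.16 without vehicle 1 and vehicle 3 (edgeR, adjusted p = 0.0917).

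The 7 markers of lymphatic endothelium (Prox1, Flt4, Lyve1, Pdpn, Mmrn1, Reln and Ccl21a) were all detected in every library. Prox1, Flt4, Lyve1 and Pdpn are members, so this list is not an independent check of the cell type. Of the 7 markers 2 were called higher and 0 lower by edgeR, against 1.17% called higher among all tested genes. There were 3 higher and 0 lower by DESeq2 or an unadjusted p under 0.05. In 3 all HPβCD libraries were above all vehicle libraries, against 8.77% of all tested genes. The summed CPM of the 7 markers was 143 to 210 in the vehicle group and 222 to 283 in the HPβCD group. Pdpn had the highest level among them and made up a large part of that sum. The called markers were Flt4 and Ccl21a, Mmrn1 had groups that did not overlap but was not called, and Prox1, Lyve1, Pdpn and Reln had groups that overlapped.

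Markers of other cell types were also compared. The fibroblast and foamy macrophage sums had groups that did not overlap, whereas the blood endothelium, mural cell and border macrophage sums overlapped. The summed CPM of 7 fibroblast markers was 2356 to 6026 in the vehicle group and 8647 to 9259 in the HPβCD group, with 2 of 7 called higher (Col1a1 and Col1a2) and 0 lower (edgeR, 4 higher and 1 lower with unadjusted p under 0.05, 3 higher and 1 lower called by DESeq2). Slc6a13, a transporter gene of meningeal fibroblasts, went against the sum, with a log2 fold change of -0.84 (adjusted p = 0.0502 by edgeR) and all HPβCD libraries below all vehicle libraries. The summed CPM of 5 foamy macrophage markers was 5774 to 11176 in the vehicle group and 13784 to 22875 in the HPβCD group. Of the 5, 1 was called higher, Gpnmb, and 0 lower by edgeR. There were 3 higher and 0 lower with unadjusted p under 0.05, and the same by DESeq2. Spp1, Lpl and Trem2 had overlapping groups, and Spp1 and Lpl had log2 fold changes of 0.09 and -0.21 (edgeR, adjusted p = 0.896 and 0.743). Over all tested genes 1.17% were called higher by edgeR. The 7 blood endothelium markers summed to 417 to 481 and 452 to 745, with 0 of 7 called (edgeR, 2 with unadjusted p under 0.05, 1 called by DESeq2), and the 6 mural cell markers to 288 to 466 and 349 to 571, with 0 of 6 called (edgeR, 1 with unadjusted p under 0.05, 0 called by DESeq2). The 7 border macrophage markers summed to 140 to 336 and 173 to 245, with 0 of 7 called (edgeR, 4 with unadjusted p under 0.05, 2 called lower by DESeq2).

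Brain cell markers were spread widely. Astrocyte markers summed to 1914 to 8412 CPM in the vehicle group and 543 to 2263 CPM in the HPβCD group, and oligodendrocyte markers to 1414 to 4630 CPM and 102 to 1786 CPM, with 0 of 5 called in each (edgeR, 3 and 0 with unadjusted p under 0.05, 3 and 1 called lower by DESeq2). Oligodendrocyte precursor markers summed to 211 to 361 CPM and 441 to 512 CPM, with 0 of 6 called (edgeR, 1 higher and 2 lower with unadjusted p under 0.05). Pdgfra, which fibroblasts also express, carried most of that sum and was called higher by DESeq2, whereas Olig1 and Olig2, transcription factors of the lineage, were called lower by it, with log2 fold changes of -2.07 and -1.94 (adjusted p = 0.102 and 0.107 by edgeR). Choroid plexus markers summed to 15.6 to 17.1 CPM and 16.5 to 22.5 CPM, with 0 of 4 called (edgeR, 1 with unadjusted p under 0.05, 1 called by DESeq2). The part of these cell types in the members' differences was not tested apart from the ratios that follow.

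To place the members against cell types, the CPM of a member was divided by the summed CPM of a marker list assigned to it, in the same library. The 8 such ratios were tested by two-sided exact permutation over 70 assignments of the libraries. The lists were assigned to members with earlier results of these data known. The p-values therefore describe the ratios and are not independent evidence. The log2 ratio of Flt4 to the blood endothelium list was -5.07 to -4.87 in the vehicle group and -4.24 to -3.80 in the HPβCD group, a difference of 0.94 without overlap (exact permutation test, p = 0.0286, adjusted over 8 ratios 0.229). Flt4 was thus higher relative to this list in all 4 treated libraries, and the difference was 0.86 to 1.00 with each library left out in turn, but its adjusted value was set by the design: over 8 ratios, a single one at the smallest possible p cannot pass. The ratio of Nrp2 to the same list differed by 0.53 with overlap (exact permutation test, p = 0.114).

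The ligands were set against a different list, the fibroblast markers. Flt4 was not divided by that list, nor were the ligands divided by the blood endothelium list. The ratios of Flt4 and of the ligands therefore cannot be contrasted with each other. Relative to the fibroblast list, the log2 ratio of Vegfc averaged -8.52 ± 0.485 in the vehicle group and -8.40 ± 0.169 in the HPβCD group (SD, n = 4), a difference of 0.12 (exact permutation test, p = 0.657) that was -0.07 without vehicle 2. That of Vegfd differed by 0.32 (exact permutation test, p = 0.400). Both ligand genes and the fibroblast list were higher in treated infarcts, and the ratios differed by less than the spread between vehicle libraries. Pdpn was lower relative to the fibroblast list, with a difference of -0.67 in log2 ratio and slight overlap (exact permutation test, p = 0.0571, adjusted over 8 ratios 0.229).

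For Lyve1 the log2 ratio to the border macrophage list differed by 0.44 with overlap (exact permutation test, p = 0.371). Relative to neuron markers, Prox1 and Ccbe1 differed by 4.01 and 5.47 log2 units with overlap (exact permutation test, p = 0.171 and 0.114). Between vehicle libraries the ratio of Prox1 ran from -8.82 to 0.86 and that of Ccbe1 from -7.38 to 3.09. The neuron sum itself ran from 9.28 to 5670 CPM in the vehicle group and from 2.57 to 71.6 CPM in the HPβCD group. Both ratios thus largely follow the neuron list, and Ccbe1 itself was lowest in the neuron-rich libraries. Ccbe1 was not compared with the fibroblast list.

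**Figure D4:**
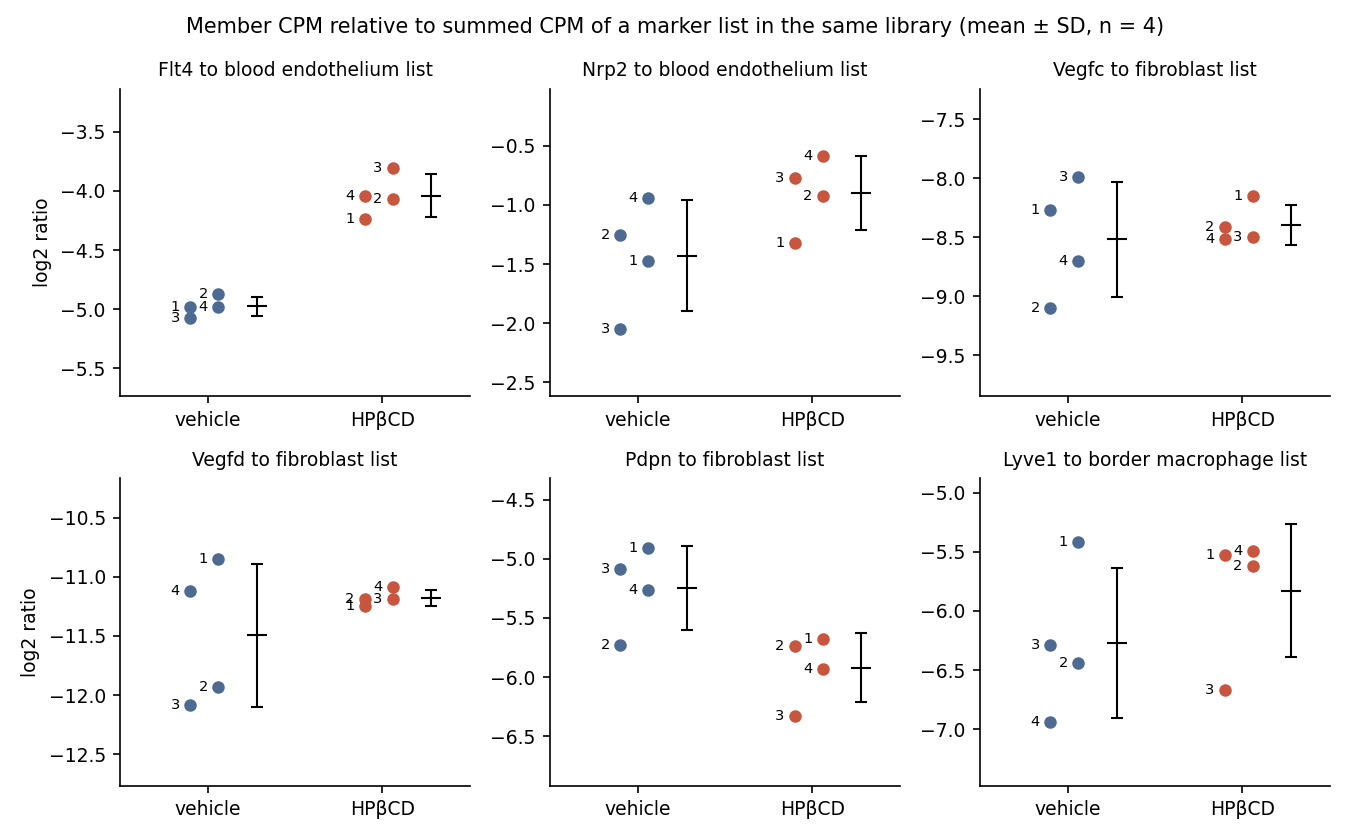
Each panel plots, for 4 vehicle and 4 HPβCD libraries numbered as in the labels, the log2 ratio of the CPM of a member to the summed CPM of a marker list, with mean ± SD beside the points. Every panel spans the same number of log2 units, and the groups are apart for Flt4 relative to blood endothelium and overlap in the other 5 panels.

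Genes whose pattern over the 8 libraries was most like that of a member were found by the root mean square difference (RMS) of log2 CPM, each gene centred on its own mean, among 13285 named genes averaging 1 CPM or more. The nearest to Vegfc were Gdpd5, Creg1 and Slc11a1, with RMS differences of 0.141 to 0.149. Creg1 and Slc11a1 encode proteins of lysosomes and endosomes. The nearest to Flt4 were Mdk, Aebp1 and Loxl1, at 0.137 to 0.146, which encode the growth factor midkine and proteins of the extracellular matrix. All 6 of these genes were called higher (edgeR, adjusted p from 0.0389 to 0.0427), against 1.17% of all tested genes. They were picked for their likeness to Vegfc and Flt4, both called, in the same libraries. These calls therefore follow largely from the choice and are not further evidence.

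For Vegfd the nearest were Mmp2, Aqp1 and Igfbp5 at 0.221 to 0.229, and for Ccbe1 they were Mmp19, Mcoln3 and Steap3 at 0.161 to 0.180. Nrp2 was matched more closely, by Slc45a3, Anxa4 and Manba at 0.0774 to 0.0918, and Pdpn by Copb2, Fkbp14 and Rab29 at 0.0849 to 0.109. Prox1 was nearest to Gpr155, BC055324 and Trim34a at 0.169 to 0.183, and Lyve1 to Ism1, Kif7 and Map7d3 at 0.202 to 0.235. No other member was among the 3 nearest genes of any member.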

How the data were processed

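Bulk RNA-Seq of 8 infarct libraries was analyzed. The authors demultiplexed reads with bcl2fastq 2.19, trimmed with Trimmomatic 0.32, aligned to GRCm38 with STAR 2.5.2b and counted with HTSeq (per the labels' processing notes). The HTSeq version, strand setting and annotation release are not given in the sources used here. The deposited values are raw counts per gene. Unassigned and multiply aligned reads (26.6% to 36.6%) were left out of totals, which lowers genes with near-identical copies. Symbols matched 45143 of 46078 identifiers, and the 935 others held 0.0484% of counts.

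Groups came from the labels, which give no batch. Chi-square per degree of freedom was at least 20.3 for every pair of libraries, and none was a duplicate. Genes were filtered with filterByExpr and tested with edgeR 4.0.16 (R 4.3.3, robust quasi-likelihood F test, TMM, threshold 0.05 after Benjamini-Hochberg adjustment). SE is the absolute log2 fold change over the square root of F. Log2 CPM used a prior count of 2. DESeq2 (the tool of the study, run here in version 1.42.0), limma-voom (limma 3.58.1), other scalings, no filter, a replicate block and left-out libraries were alternatives. The fits were tested on data simulated with dispersions estimated by edgeR, where DESeq2 made more false calls than edgeR. Exon lengths and coordinates came from GENCODE M21, upstream sequences from RefSeq (GRCm38.p6).

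Members and gene lists were chosen with earlier results of these data known. Named were all members, stated genes of both lists, all called genes of both lists, the 3 nearest genes per member and the top gene of each marker list. Further genes (Adamts2, Vegfa, Vegfb, Flt1, Col1a1, Col1a2, Slc6a13, Spp1, Lpl, Trem2, Olig1 and Olig2) were named after their values were seen. The top markers were Mrc1, Dcn, Cdh5, Rgs5, Snap25, Slc1a2, Pdgfra, Mbp, Clic6, Gpnmb and Ppbp.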

Additional observations from a re-analysis of the deposited data

Results flagged for a closer look

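Among 40 groups of 4 libraries examined for members and ratios, 2 held a library far from its 3 companions, and chance gives about 2. Other genes were not examined in this way. Flt4 in HPβCD 4 measured 27.4 CPM, where the other treated libraries had 37.7 to 39.5 CPM. The log2 ratio of Lyve1 to the border macrophage list was -6.67 in HPβCD 3, where the other treated libraries had -5.62 to -5.50.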

How the results depend on the processing

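The directions of Vegfc, Flt4, Vegfd, Nrp2, Ccbe1, Pdpn, Lyve1 and Prox1 were the same under all 15 alternatives. The number of members called was 2, and became 4 with DESeq2, 0 with library totals only and 0 with the replicate block (edgeR, 5 and 6 with unadjusted p under 0.05 in the last 2). Leaving out single libraries gave 0 to 3 members. For the 30 pathway genes, 2 calls became 12 with DESeq2, 1 with limma-voom, 0 with library totals, 0 with the replicate block (edgeR, 17 and 18 with unadjusted p under 0.05) and 1 without vehicle 1 and 3, and 0 to 4 with single libraries left out. For the lymphatic list, 3 calls became 15 with DESeq2, 1 with limma-voom, 0 with library totals, 5 with no filter, 0 with the replicate block (edgeR, 15 and 23 with unadjusted p under 0.05) and 1 without vehicle 1 and 3, and 0 to 6 with single libraries left out. Over all genes tested, 287 calls became 2619 with DESeq2, 65 with limma-voom, 11 with library totals and 9 with the replicate block, and 0 to 629 with single libraries left out. Without vehicle 1, vehicle 4, HPβCD 1, HPβCD 2 or HPβCD 3 edgeR called 0 genes of each list, with 4 to 6 members, 13 to 19 pathway genes and 16 to 22 lymphatic genes at an unadjusted p under 0.05. Over all genes it called 0 in these fits, except 4 without HPβCD 1, with 2922 to 4216 at an unadjusted p under 0.05. The cause was not tested.

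Replicate numbers did not pair the libraries: correlations of same-numbered deviations ran from -0.257 to 0.329, and 2 of 4 vehicle libraries correlated best with their own number. The fitted log2 fold change changed sign for Itga9 (-0.047 with library totals, -0.12 to 0.20 with single libraries left out, -0.055 without vehicle 1 and 3), for Nr2f2 (-0.0087 without vehicle 3 and up to 0.27 with other single libraries left out, -0.17 without vehicle 1 and 3) and for Reln (0.055 with limma-voom, 0.0033 with the replicate block, -0.70 to 0.089 with single libraries left out, 1.16 without vehicle 1 and 3), none of which was called. Depth limits Vegfd and Lyve1 most, whose lowest libraries held 9 and 34 reads.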
